A study of Homo sapiens with 3 samples.

Results

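Forkhead, SOX, Krüppel-like (KLF), ETS, AP-2 and BCL11 transcription factors were examined in untreated BTSH cells, a trastuzumab-hypersensitive clone picked from the HER2+ breast cancer line BT474. The members were chosen by gene symbol alone: forkhead genes FOXA to FOXS, numbered SOX and KLF genes, ELF1 to ELF5, ETV1 to ETV7, ETS1 and ETS2, ELK1, ELK3 and ELK4, the AP-2 genes TFAP2A to TFAP2E, and SPDEF, EHF, BCL11A and BCL11B. FOXA1, FOXM1 and KLF6 were left out. This rule found 94 genes, represented by 97 features, among 14884 named genes. The array's annotation used here names 94 of the 105 protein-coding genes of GRCh38.p14 that fit the rule, and the other 11 are unnamed here (among them ELF3, TFAP2A and the ELK genes). Expression was measured on 3 HuGene 2.0 ST arrays, 1 for each culture described as a biological replicate. All arrays belong to BTSH cells, which are a single clone, so no difference between cell lines or treatments was tested. The arrays of the parental BT474 cells and of the resistant BTRH cells were not analysed here.

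Transcription factors of these families recognise short DNA motifs, and close relatives bind nearly the same letters. What sets relatives apart is mostly the cell type in which each is made and the cofactors it recruits. In breast epithelium, SPDEF, ELF5, EHF and the AP-2 factors are known for roles in luminal cells, whereas several SOX and forkhead factors act in other germ layers, such as SOX10 in the neural crest and SOX17 and SOX18 in endothelium. HER2 signals through the PI3K-AKT and RAS-ERK pathways. AKT keeps FOXO factors out of the nucleus, and ERK acts on several ETS factors and induces genes of the PEA3 group (ETV1, ETV4 and ETV5).

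A gene was called above background when its log2 signal passed, in every array, the 95th percentile of 106 features for genes that breast epithelium is not known to use (those of hair keratin-associated proteins, of the late cornified envelope and of vomeronasal receptors). In replicates 1, 2 and 3 this background lay at log2 signals of 6.70, 7.08 and 6.83. Of the 94 members, 32 (34.0%) were above background in all 3 arrays, 5 (5.32%) in 1 or 2 arrays and 57 (60.6%) in 0 arrays. The share above background in all 3 arrays was 30.4% among all named genes and 36.5% among the named protein-coding genes, and 6.29% of all named genes passed in 1 or 2 arrays. All members are protein-coding, and their share lay between both backgrounds. The shares of the families at this background were as follows. Of the ETS genes 9 of 15 (60.0%) were above background, of the KLF genes 7 of 16 (43.8%), of the SOX genes 6 of 19 (31.6%) and of the forkhead genes 8 of 38 (21.1%). AP-2 genes passed in 1 of 4 cases and BCL11 genes in 1 of 2. No test was made of these shares, and they depended on the level of background. With background at the 90th percentile, which 49.4% of all named genes passed, 9 of 15 ETS genes (60.0%), 12 of 16 KLF genes (75.0%), 9 of 19 SOX genes (47.4%) and 17 of 38 forkhead genes (44.7%) were above it. With the 99th percentile, which 22.0% of all named genes passed, the counts were 5 ETS (33.3%), 5 KLF (31.2%), 5 SOX (26.3%) and 6 forkhead genes (15.8%). Mean signals of the 32 genes ran from 7.22 (ETV3) to 11.33 (SPDEF) and those of the 57 genes from 2.98 (FOXB1) to 6.70 (KLF16). Genes are not ranked against each other by signal, because probes differ in how strongly they respond. In bulk RNA, fewer cells with a transcript and less of it in each cell cannot be told apart, and a gene below background may still be transcribed.

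**Figure D1:**
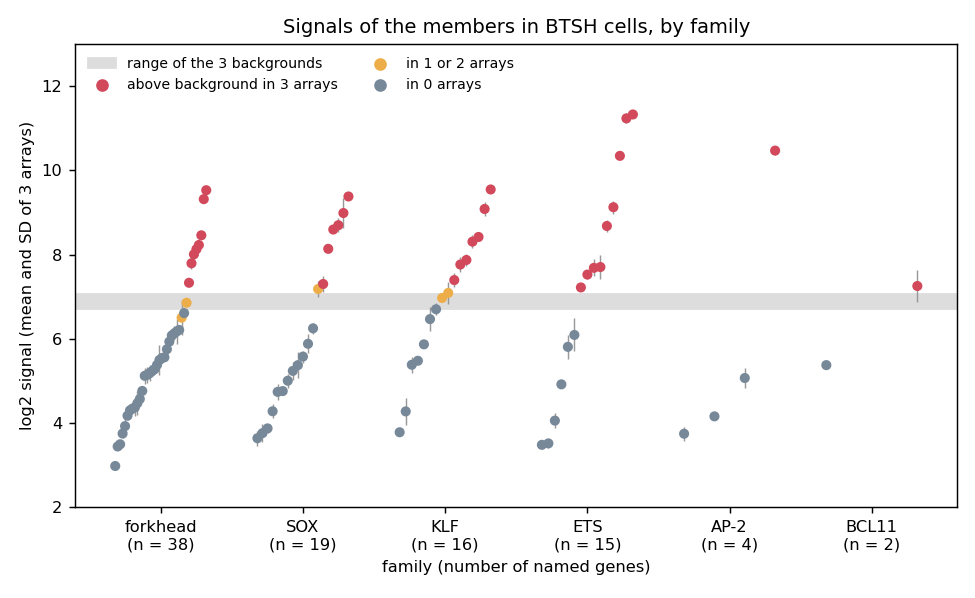
Mean log2 signal (vertical axis) of each of the 94 members in 6 families (horizontal axis). Points are means and bars SDs of 3 BTSH arrays, and the grey band spans the backgrounds of the arrays, 6.70 to 7.08. ETS genes lie above the band in 9 of 15 cases and forkhead genes in 8 of 38.

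Epithelial ETS factors were above background without exception among those named. SPDEF, which drives secretory differentiation in goblet and other luminal cells, had log2 signals of 11.24, 11.37 and 11.37 in replicates 1, 2 and 3. EHF, an ETS factor restricted to epithelia, had 10.37, 10.32 and 10.35. For ELF5, which directs alveolar cell fate in the mouse mammary gland, the signals were 9.12, 9.28 and 8.97. Each of these genes exceeded background by at least 2.14 in every array, and the replicates of EHF were at most 1.04-fold apart. EHF and ELF5 are neighbours on chromosome 11 with 0 protein-coding genes between them, and they are the only adjacent pair of members in which both were above background.

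The sequences before the RefSeq starts of this neighbouring pair are shown because both genes passed with epithelial roles, with SOX2 and FOXK1 as members of other families. Each run holds the 250 bases before a start, 5′ to 3′ on the gene's own strand, in GRCh38.p14. Capitals mark matches on either strand to motifs that the families are known to bind. For KLF factors these were the letters GGGCGG, called a GC box, and the letters CCACCC, called a CACCC box. The ETS motif searched was CCGGAAG, and the motif of the forkhead factors was TGTTTAC. SOX factors were represented by the letters ACAAAG, and AP-2 factors by GCCNNNGGC, in which N is any base. EHF has 2 starts in the table, and its runs are named by their order along the chromosome. These positions are those of the RefSeq starts and not of the array's features, whose build is not stated in the sources used.
ELF5, chr11:34511725-34511974, minus strand: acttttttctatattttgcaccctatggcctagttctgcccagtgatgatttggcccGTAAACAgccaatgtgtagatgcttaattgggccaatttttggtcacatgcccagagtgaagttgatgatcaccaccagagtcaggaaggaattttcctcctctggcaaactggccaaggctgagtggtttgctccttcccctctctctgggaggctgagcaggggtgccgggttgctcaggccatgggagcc
EHF first start, chr11:34624007-34624256, plus strand: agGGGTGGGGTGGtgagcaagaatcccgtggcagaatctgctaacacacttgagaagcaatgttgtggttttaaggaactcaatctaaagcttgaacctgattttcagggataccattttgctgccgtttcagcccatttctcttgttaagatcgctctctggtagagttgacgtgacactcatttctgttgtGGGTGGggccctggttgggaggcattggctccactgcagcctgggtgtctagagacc
EHF next start, chr11:34632316-34632565, plus strand: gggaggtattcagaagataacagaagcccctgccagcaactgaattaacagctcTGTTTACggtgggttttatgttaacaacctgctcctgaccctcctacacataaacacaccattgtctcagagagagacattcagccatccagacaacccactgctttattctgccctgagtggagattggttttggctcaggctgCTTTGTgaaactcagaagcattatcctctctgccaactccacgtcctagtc
SOX2, chr3:181711675-181711924, plus strand: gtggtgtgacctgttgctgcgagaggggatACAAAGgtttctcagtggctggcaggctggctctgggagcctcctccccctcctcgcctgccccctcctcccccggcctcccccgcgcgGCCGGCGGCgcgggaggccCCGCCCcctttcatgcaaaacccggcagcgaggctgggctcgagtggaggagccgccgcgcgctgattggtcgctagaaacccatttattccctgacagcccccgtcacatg
FOXK1, chr7:4682045-4682294, plus strand: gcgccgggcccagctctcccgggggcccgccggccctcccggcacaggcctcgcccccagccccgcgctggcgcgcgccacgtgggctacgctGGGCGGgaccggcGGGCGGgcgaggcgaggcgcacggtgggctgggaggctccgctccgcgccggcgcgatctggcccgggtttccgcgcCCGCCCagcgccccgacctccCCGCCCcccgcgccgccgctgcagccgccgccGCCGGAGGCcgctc
The run of ELF5 and the run at the next EHF start each hold 1 forkhead match, the latter with 1 SOX match as well, and the other EHF run holds 3 CACCC matches. The SOX2 run holds 1 GC box, 1 SOX match and 1 AP-2 match, and that of FOXK1 holds 4 GC boxes and 1 AP-2 match. ELF5 and EHF hold 2 to 4 CG dinucleotides in 250 bases, SOX2 holds 20 and FOXK1 holds 44. A match is a run of letters and not a binding site that these arrays measured.

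Broadly used ETS factors of the ELF group were also above background, although only ELF1 of the 3 passed with the 99th percentile. ELF1, which is made in many tissues, had log2 signals of 11.35, 11.23 and 11.12. Its relative ELF2 had 7.85, 7.74 and 7.46. ELF4 varied more, with 8.01, 7.47 and 7.63. All of these genes were highest in replicate 1, with the lowest signal in replicate 3 for ELF1 and ELF2 and in replicate 2 for ELF4. The repressor ETV6, known from leukaemia translocations, had 8.82, 8.66 and 8.55, whereas its relative ETV7 was at 3.89, 4.04 and 4.24 and passed in 0 arrays. ETS2, a factor that MAP kinases phosphorylate, had 7.60, 7.42 and 7.56. Its closest relative ETS1, a factor of lymphoid and endothelial cells, was at 3.59, 3.58 and 3.39. Thus ETV6 and ETS2 passed in every array and their relatives in none, but ETS2 did not pass with the 99th percentile. ETV2, an endothelial and blood factor, passed in 0 arrays (4.98, 4.91 and 4.87). ETV3, a repressor of growth genes, had 7.25, 7.23 and 7.19 and lay within 0.15 of background in replicate 2. It did not pass with the 99th percentile.

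PEA3 factors, which ERK signalling induces, were above background in 0 of 3 cases. The count was also 0 with the 90th percentile, but ETV4 and ETV5 only just missed it. In the array where each fared worst, the distance from that background was -0.003 for ETV4 and -0.007 for ETV5. ETV4, for which the group was named, had log2 signals of 6.45, 5.67 and 6.15. ETV5 had 6.13, 5.67 and 5.63, and ETV1 had 3.53, 3.54 and 3.38. The replicates of ETV4 spread widely (SD 0.39, n = 3), with replicate 1 highest and replicate 2 lowest. Other genes tied to ERK and ETS activity gave a mixed picture. Of 10 named genes of this list, 5 were above background (9 with the 90th percentile and 3 with the 99th): the phosphatases DUSP4 (9.62 ± 0.16, mean ± SD, n = 3) and DUSP6 (7.61 ± 0.31), the ERK pathway inhibitor SPRY4 (7.19 ± 0.21), the cyclin CCND1 (9.26 ± 0.09) and the early response gene IER3 (9.15 ± 0.19). SPRY2 (5.89 ± 0.08), DUSP5 (6.13 ± 0.17), the ephrin receptors EPHA2 (5.90 ± 0.25) and EPHA4 (6.38 ± 0.04) and the collagenase MMP1 (2.76 ± 0.06) were above it in 0 arrays. The ELK factors, partners of the serum response factor SRF, are unnamed here. SRF itself was above background (8.37, 8.60 and 8.52), and is 1 of 5 such genes among the 11 named ones of its list (8 with the 90th percentile and 3 with the 99th). The counts of both lists are to be read beside the 36.5% of named protein-coding genes above background. Of all named genes, 49.4% passed with the 90th percentile and 22.0% with the 99th.

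KLF factors bind GC-rich and CACCC motifs through zinc fingers and differ in the cofactors they recruit. Of the repressors that bind CtBP, KLF3 had log2 signals of 9.56, 9.54 and 9.54, the smallest spread of any of the 32 genes (SD 0.01, n = 3). KLF8 had 7.84, 8.03 and 7.74. The remaining factor of this group, KLF12, was at 6.68, 6.59 and 6.14, which is 0.02 under background in replicate 1 and 0.70 under it in replicate 3. KLF12 is the neighbour of KLF5 on chromosome 13, and KLF5 was above background. Among the factors that bind the corepressor SIN3A, KLF10, a gene induced by TGF-beta, had 9.25, 9.09 and 8.91. KLF11, its close relative, had 8.47, 8.19 and 8.26. KLF9, a target of steroid hormones, had 7.39, 6.89 and 6.99 and missed background in replicate 2. KLF13, KLF14 and KLF16 of the same group passed in 0 arrays, and KLF16 had 6.53, 6.79 and 6.78. With the 90th percentile, 5 of the 6 SIN3A-binding factors passed in place of 2.

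Activating KLF factors were above background in 3 of 5 cases, with 4 (KLF4 gained) at the 90th percentile and KLF5 alone at the 99th. KLF5, which promotes the growth of epithelia, had log2 signals of 8.46, 8.31 and 8.49. KLF7, first described as a ubiquitous KLF, had 7.95, 7.77 and 7.57. KLF2, known from endothelium and resting T cells, had 7.28, 7.59 and 7.31. KLF5 was lowest in replicate 2, where KLF2 was highest. KLF4, a factor of epithelial differentiation and of reprogramming to pluripotency, was at 6.92, 6.91 and 7.08 and missed background in replicate 2. The globin regulator KLF1 passed in 0 arrays (5.48 ± 0.06, SD, n = 3), as did KLF15 (4.28 ± 0.32) and KLF17 (3.78 ± 0.07).

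SOX factors bind DNA through an HMG box and fall into groups of close relatives. In the SOXC group, SOX4, which acts in progenitors and in many carcinomas, had log2 signals of 9.45, 9.37 and 9.32. SOX12 had 8.54, 8.54 and 8.70 with the feature used here, and its other feature passed in 0 arrays (6.36, 6.03 and 6.47). SOX11, a neural factor of the same group, had 7.41, 7.03 and 7.11 and lay 0.04 under background in replicate 2. All SOXC genes therefore passed in at least 2 arrays. In the SOXE group, SOX9, a progenitor factor of ducts and cartilage, had 8.84, 8.74 and 8.51. Its relatives SOX8 (5.65, 6.10 and 5.90) and SOX10 (5.05, 5.43 and 5.65) passed in 0 arrays. SOX10 is a factor of the neural crest and of basal breast cells. SOX8 passed with the 90th percentile. Of the SOXD group, SOX13 had 7.42, 7.40 and 7.08, and did not pass with the 99th percentile, whereas SOX5 (3.87 ± 0.11, SD, n = 3) and SOX6 (4.76 ± 0.03) passed in 0 arrays. SOX15, the sole SOXG gene, had 8.18, 8.06 and 8.17. By RefSeq it overlaps MPDU1, whose own feature was at 5.77, 5.82 and 6.05.

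SOX2, a core factor of pluripotent and neural stem cells, was above background in BTSH cells, with log2 signals of 8.75 in replicate 1, 9.41 in replicate 2 and 8.80 in replicate 3. It passed by at least 1.97 in every array. Its SOXB1 relatives SOX1 (4.61, 4.97 and 4.64) and SOX3 (3.60, 3.67 and 4.01) passed in 0 arrays. SOX2 lies within the noncoding gene SOX2-OT, whose own feature was at 3.74, 3.69 and 3.75. The value of SOX2 rests on 1 feature. Replicate 2 stood 1.58-fold above replicate 1, and only 0.707% of the genes above background had a larger SD than SOX2 (0.37, n = 3). In the same replicate, 4 of the 5 immediate early genes above background were highest, beside 24.4% of all genes above background. Their mean deviation from the other arrays was 0.27. The 2 listed genes above background in only some arrays differed more, EGR1 (6.38, 8.48 and 6.42) and JUN (6.72, 8.11 and 6.40). Of the 7 in 0 arrays, only FOS, ATF3 and MYC were highest in replicate 2. The others were not, namely FOSB (5.89, 5.68 and 5.81), FOSL1 (5.14, 4.80 and 6.05), EGR3 and CCN2. The luminal factor GATA3 had 8.69, 9.43 and 8.78. Of the 10 luminal markers above background, however, 4 were highest in replicate 2 and 5 in replicate 3. PGR (9.40, 9.20 and 9.31) and TFF1 (10.87, 10.59 and 11.11) were lowest in replicate 2. The part of these differences between cultures in the value of SOX2 was not tested. SOXF genes of endothelium passed in 0 of 3 cases (SOX7, SOX17 and SOX18), with SOX18 alone passing at the 90th percentile. SOX14, SOX21 and SOX30 passed in 0 arrays.

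**Figure D2:**
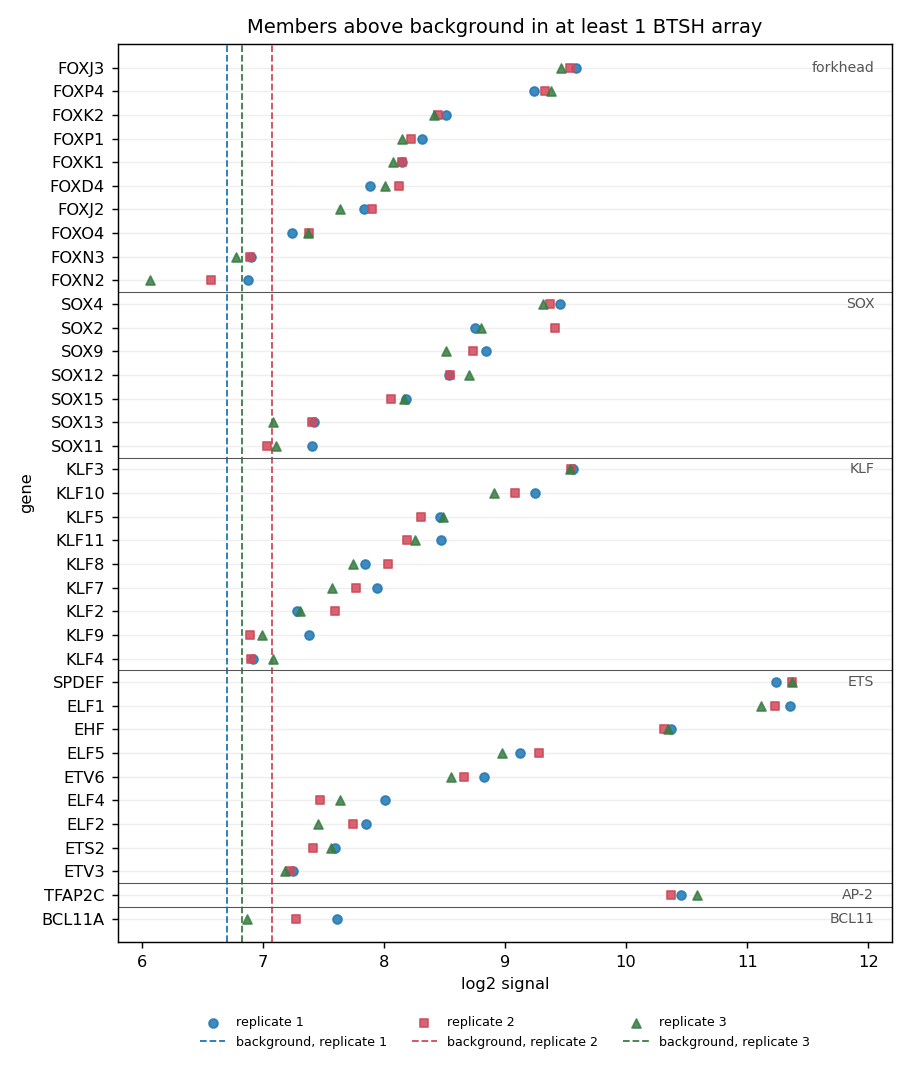
Log2 signal (horizontal axis) in each replicate of the 37 members above background in at least 1 array (vertical axis, grouped by family). Dashed lines are the backgrounds of replicates 1, 2 and 3 (6.70, 7.08 and 6.83). BCL11A in replicate 3 (6.87) sits next to its line, and SOX2 in replicate 2 (9.41) stands apart from its other replicates.

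Forkhead factors above background belonged to the FOXJ, FOXK, FOXO, FOXP and FOXD groups. FOXK1 and FOXK2, regulators of autophagy and glycolysis, had log2 signals of 8.15, 8.15 and 8.08 (FOXK1) and 8.52, 8.45 and 8.41 (FOXK2). At this background and at the 99th percentile, FOXK was the only forkhead group in which every named gene passed. With the 90th percentile the same held for the FOXJ, FOXO and FOXP groups. FOXJ3 had 9.59, 9.53 and 9.46, and FOXJ2 had 7.84, 7.90 and 7.64. FOXJ1, the master regulator of motile cilia and a relative by name, was at 6.17, 6.23 and 6.24 and passed in 0 arrays. FOXP1, a repressor with known roles in B cells and hormone-dependent tissues, had 8.31, 8.22 and 8.15. FOXP4 had 9.24, 9.33 and 9.38, and by RefSeq it overlaps the microRNA gene MIR4641, whose feature was also above background (7.78, 7.81 and 8.00). FOXP2, known from speech and brain development, was at 6.32, 6.36 and 5.85, and FOXP3, the factor of regulatory T cells, at 6.31, 6.08 and 5.99, and both passed in 0 arrays.

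FOXO factors, which AKT signalling inactivates, were above background in 1 of 3 cases, but in 3 of 3 with the 90th percentile and in 0 of 3 with the 99th. FOXO4 had log2 signals of 7.24, 7.38 and 7.37 and lay 0.31 above background in replicate 2. FOXO3 was at 6.60, 6.61 and 6.62 with the brighter of its 2 features, and FOXO1 at 5.87, 6.12 and 5.81. Their regulation acts on the protein, which the arrays do not measure. Of 12 named genes known as FOXO targets, 8 were above background, among them the cell cycle inhibitor CCNG2 (7.96 ± 0.15, SD, n = 3), the cell death gene BCL2L11 (7.49 ± 0.06), the repressor BCL6 (8.84 ± 0.28) and the receptor ERBB3 (9.04 ± 0.02). The insulin pathway genes IRS2 (5.50 ± 0.17) and INSR (6.25 ± 0.22), the stress gene SESN3 (5.61 ± 0.15) and PIK3IP1 (6.09 ± 0.11) passed in 0 arrays. The share of 8 in 12 is to be read beside the 36.5% of protein-coding genes.

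FOXD4 was above background with log2 signals of 7.89, 8.12 and 8.01, but the gene has near-identical copies. Features of 3 of these copies are named, and all 4 such features passed in 0 arrays, the brightest being that of FOXD4L6 (6.37, 6.93 and 6.75). Which copy gave the FOXD4 signal cannot be told from the array. Of the FOXN group, FOXN2 (6.87, 6.57 and 6.06) and the checkpoint repressor FOXN3 (6.90, 6.89 and 6.78) passed in replicate 1 alone. FOXN2 had the widest replicates of all 94 members, 1.75-fold apart. The pioneer factors FOXA2 (5.62, 5.77 and 5.87) and FOXA3 (5.43, 5.66 and 5.55), which act in liver and gut, passed in 0 arrays. All 16 named genes of the FOXB, FOXE, FOXF, FOXH, FOXI, FOXL, FOXQ, FOXR and FOXS groups also passed in 0 arrays, with means from 2.98 to 5.56. Many of them act in mesenchyme or in the embryo. FOXD1, FOXD2, FOXD3, FOXN1 (a thymus factor) and FOXN4 likewise passed in 0 arrays. Pairs of direct neighbours in which neither gene passed were FOXE3 with FOXD2 on chromosome 1 and TFAP2D with TFAP2B on chromosome 6.

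AP-2 factors passed in 1 of 4 cases. TFAP2C, which binds regulatory DNA of HER2 and of estrogen receptor targets in luminal cells, had log2 signals of 10.45, 10.37 and 10.58 and exceeded background by at least 3.29. TFAP2B (4.20, 4.09 and 4.18), TFAP2D (3.57, 3.77 and 3.90) and TFAP2E (4.93, 4.93 and 5.34) passed in 0 arrays. TFAP2C was highest in replicate 3, against the direction of most members described below. Each AP-2 gene rests on 1 feature.

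BCL11A, a zinc finger repressor of fetal globin that is also known from triple-negative breast cancer, had log2 signals of 7.61 in replicate 1, 7.28 in replicate 2 and 6.87 in replicate 3. BCL11A was singled out with results of these same arrays known, so its level here is not independent evidence of a direction. All replicates passed, and replicate 1 was highest. In replicate 3 it lay only 0.04 above background, and it did not pass with the 99th percentile. Its replicates were 1.67-fold apart, and its SD of 0.37 (n = 3) was the largest of the 32 genes, with 0.685% of all genes above background having a larger SD. Its paralog BCL11B, a T cell factor, was at 5.35, 5.35 and 5.43 and passed in 0 arrays. BCL11 proteins associate with the BAF chromatin remodelling complex and with the NuRD corepressor. Of 7 named BAF subunits 6 were above background, for example ARID1A (8.83 ± 0.05) and PBRM1 (9.82 ± 0.06), and the neuronal subunit ACTL6B was not (3.99 ± 0.03). All 10 named NuRD subunits were above background, such as CHD4 (10.10 ± 0.05), HDAC1 (9.76 ± 0.07) and MBD2 (10.23 ± 0.06). These counts are to be read beside the 36.5% of named protein-coding genes above background. With the 99th percentile, which 22.0% of all named genes passed, 5 of 7 BAF and 7 of 10 NuRD subunits passed. Only 7 of 22 listed BAF subunits and 10 of 13 listed NuRD subunits are named.

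The replicates of the members were close. The median SD of the 32 genes was 0.113 on the log2 scale, beside 0.111 for all named genes above background. An SD of at least 0.2 was found for 4 of 32 genes (BCL11A, SOX2, ELF4 and ELF2), or 12.5%, against 13.8% of all genes above background. SOX13 followed with 0.19. No member was 2-fold apart between any pair of arrays.

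Most members above background were highest in replicate 1. This held for 20 of 32 genes (62.5%), against 48.1% of all genes above background, while 7 were highest in replicate 2 (24.4% of all genes) and 5 in replicate 3 (27.4% of all genes). Replicate 3 was lowest for 18 genes (47.3% of all genes), replicate 1 for 7 (26.8% of all genes) and replicate 2 for 7 (25.9% of all genes). Both held, highest in replicate 1 and lowest in replicate 3, for 15 of 32 genes (46.9%), beside 33.4% of all genes above background. They include BCL11A, ELF1, ELF2, ETV6, KLF7, KLF10, SOX9 and SOX13. The mean deviation of the 32 genes from the other arrays was 0.08, 0.03 and -0.11 in replicates 1, 2 and 3, and that of all genes above background was 0.05, 0.00 and -0.05. Members therefore followed the direction of genes in general. Dim members differed from those above background, as 26 of the 57 genes in 0 arrays (45.6%) were highest in replicate 3. Dim genes in general went the same way, with 37.5% of all named genes in 0 arrays, against 27.4% of all genes above background. SPDEF, TFAP2C, KLF5, SOX12 and FOXP4 were the genes above background that were highest in replicate 3. FOXO targets above background were highest in replicate 1 in 6 of 8 cases, beside 48.1% of all genes above background. Their mean deviations were 0.12, 0.05 and -0.17. The other lists differed, with 6 of 10 NuRD subunits, 1 of 6 BAF subunits and 1 of 10 luminal markers highest in replicate 1. The count was 1 of 5 for the SRF list, and 0 of 5 for both the ERK and ETS list and the immediate early genes. Whether the members and the FOXO targets share a cause was not tested.

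**Figure D3:**
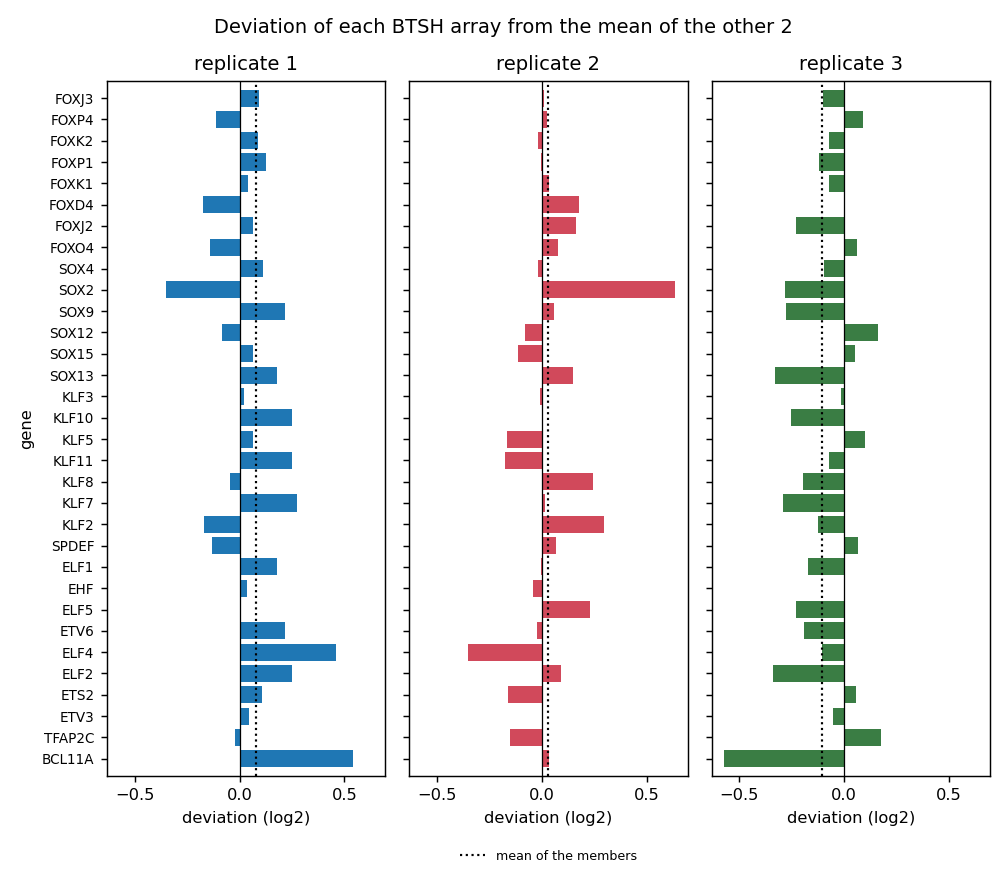
Deviation of each array from the mean of the other arrays (horizontal axis, log2) for the 32 members above background (vertical axis), with 1 panel for each replicate. Dotted lines are the means of the members, 0.08, 0.03 and -0.11. BCL11A has the longest bars in replicates 1 and 3 (0.54 and -0.57) and SOX2 in replicate 2 (0.63).

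Promoter sequence, which the choice of members did not use, was available for 27 of the 32 genes above background (53 windows of 300 bases) and for 40 of the 57 genes in 0 arrays (57 windows). The windows come from RefSeq (GRCh38.p14), and each spans 250 bases before and 50 after a start. The CpG ratio, which is the number of CG dinucleotides divided by that expected from the C and G content, had a median of 0.72 for the genes above background, 0.73 for the genes in 0 arrays and 0.58 for all 35116 windows. A ratio under 0.5 was found in 32.1%, 31.6% and 46.0% of these windows. The medians are over windows, so a gene with several starts counts more than once. Those of the windows of genes above background and of genes in 0 arrays were close, and no test of their difference was made. Within the ETS genes above background, the ratio was low at every start of EHF (0.17 and 0.41), ELF5 (0.10) and SPDEF (0.40). It was high for ETV3 (0.97), ETV6 (0.93), ETS2 (0.76 and 0.80) and ELF2 (0.78 and 0.94). ELF1 and ELF4 had both low and high starts.

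Letters of the families' own motifs, searched on both strands, were found as follows. GC boxes were present in 56.6% of the windows of genes above background, 61.4% of those in 0 arrays and 45.0% of all windows. For CACCC boxes the shares were 39.6%, 31.6% and 34.3%. Forkhead sites occurred in 9.43%, 1.75% and 3.42%, SOX sites in 20.8%, 10.5% and 16.1%, and AP-2 sites in 26.4%, 26.3% and 23.2%. The ETS site was found in 1.89%, 1.75% and 10.3%. Some matches overlap, and windows of 1 gene are not independent, so no test was made.

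**Figure D4:**
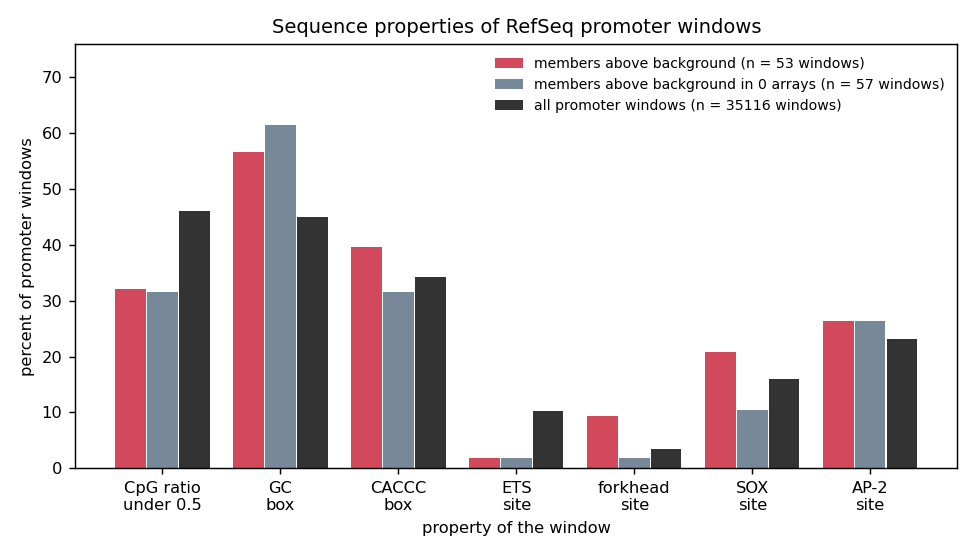
Percent of RefSeq promoter windows (vertical axis) with a CpG ratio under 0.5 or with at least 1 match to a motif (horizontal axis), for 53 windows of members above background, 57 windows of members in 0 arrays and all 35116 windows. The ETS site is found in 1.89% and 1.75% of the members' windows and in 10.3% of all windows.

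Markers of the labelled cell type and of others were read by the same call. Of 12 named luminal markers 10 were above background, beside 36.5% of the named protein-coding genes. This list holds GRB7 and STARD3, neighbours of HER2 that are amplified with it, and 8 of 10 passed without them, for example ESR1 (8.61 ± 0.07, SD, n = 3), EPCAM (10.81 ± 0.04) and KRT19 (11.25 ± 0.09), and KRT8 (6.28 ± 0.24) was above it in 0 arrays. All 5 named basal markers were above background in 0 arrays (1 passed with the 90th percentile), including KRT5 (3.71 ± 0.07) and KRT14 (4.61 ± 0.23). The same held for 5 endothelial markers such as PECAM1 and VWF, 2 fibroblast markers (DCN and LUM), 3 leukocyte markers and 3 melanocyte or Schwann cell markers. The annotation names only part of each of these lists. It names 5 of 8 basal, 5 of 7 endothelial, 2 of 7 fibroblast, 3 of 8 leukocyte and 3 of 6 melanocyte or Schwann cell genes. The summed signal of each of these lists lay between 4.17 and 7.25 on the log2 scale in every array.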

How the data were processed

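Untreated BTSH cells were measured on 3 HuGene 2.0 ST arrays, and all belong to a single group. The deposited log2 values had been made by the authors with RMA in Affymetrix Expression Console 1.4. Transcriptome Analysis Console 4.0 is named in the submitters' notes too. The sources used do not state a genome build for the features. RMA ranks arrays onto a common distribution, so a shift shared by all genes cannot be seen.

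Of 53617 features, 16098 carry a gene symbol in the annotation used, for 14884 genes. A gene with several features was represented by the feature with the highest mean. The background features, 106 in all, hold 105 of protein-coding genes and 1 of an antisense RNA gene (KRTAP5-AS1). Pseudogenes were left out. Calls, SDs over 3 arrays and deviations of each array from the mean of the other arrays were computed with Python 3.11.15, numpy 2.4.6 and pandas 2.3.3 and drawn with matplotlib 3.10.9. No p-value was computed, since there is only a single group. The call and the deviation were tested on simulated data. The members and lists were chosen with earlier results of these data known. Values in every array are given for each member above background in any array, and for relatives that were not. That choice of relatives was planned by protein identity, which was not computed here, and was made by known subfamilies after values were seen. The number of arrays, 3, limits the precision. The arrays shared at most 83 identical values, and each counts as a replicate.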

Additional observations from a re-analysis of the deposited data

How the results depend on the processing

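The level of background moved the counts most. With background at the 90th percentile, 49 of the 94 members passed (forkhead 17, KLF 12), beside 49.4% of all named genes, and FOXO1, FOXO3, KLF4, KLF9, KLF12, KLF16 and SOX11 were among those gained. With the 99th percentile, 22 members passed, 5 of them ETS genes and 0 of them BCL11 genes, beside 22.0% of all named genes. BCL11A, ELF2, ELF4, ETS2, ETV3, FOXJ2, FOXO4, KLF2, KLF7 and SOX13 were lost there, because a higher background admits fewer genes. The mean over the arrays gave 35 members, with KLF4, KLF9 and SOX11 gained. Leaving out 1 replicate gave 32 to 35 members, and the same genes were gained without replicate 2, whose background was the highest. Quantile normalization, median centring, averaging a gene's features and protein-coding background genes only (the last chosen after seeing the data) each left 32 members. The mean deviation of members in replicate 1 was -0.00887 over all members, against 0.08 over those above background, and that in replicate 3 was -0.01 over all members, against -0.11. In the other settings run, the mean deviations kept their direction and the median SD stayed within 1.5 times its value. Deviations were not recomputed without a replicate, since 2 arrays give only their difference. No paired analysis was possible because every array belongs to BTSH cells. Signals near background limit what can be read, as for BCL11A, ETV3 and SOX11.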
